A study of Homo sapiens with 9 samples.

Results

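The VTI1A promoter was one of 20 promoters whose chromatin interactions were measured by Capture-C, and the stretch studied here runs from 500 kb upstream to 800 kb downstream of the VTI1A transcription start, which takes in the whole of VTI1A and of its downstream neighbor TCF7L2. This window was set by position alone and holds 3086 of the 128454 DpnII fragments measured on chromosome 10 and of the 637580 measured in all for this viewpoint. The cells were HCT-116, an established human colorectal carcinoma line, in a MED14-dTAG derivative: every group, including the controls, carries MED14 fused to a tag through which the dTAG ligand directs the protein to degradation. The 3 groups, with 3 libraries each, were cells treated with dTAG ligand (0.5 μM for 2 h) and the BET inhibitor I-BET (1 μM for 90 min), called dTAG+I-BET, cells treated with dTAG ligand alone (0.5 μM for 2 h), called dTAG, and DMSO-treated cells. The methods describe the replicates as biological, whereas the columns number them with letters that are not explained, so p-values measure the spread between these libraries. I-BET was not given alone, so its effect without MED14 degradation cannot be told apart from its effect on top of it.

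Capture-C joins pieces of DNA that lie close together in the nucleus and then enriches the joined pieces that contain a chosen promoter, the viewpoint. Interaction frequency falls with distance along the chromosome, and it can stay high over remote stretches where the chromatin fiber folds back, often between sites bound by the insulator protein CTCF and the ring-shaped cohesin complex. Mediator, of which MED14 is the central scaffold, passes signals from enhancers to RNA polymerase II at promoters, and BET proteins bind acetylated histones at the same elements. VTI1A encodes a SNARE protein that helps vesicles fuse between endosomes and the trans-Golgi network. TCF7L2 encodes a transcription factor that acts with β-catenin at the end of the Wnt pathway, on which colorectal carcinoma cells commonly depend, and fusions of VTI1A with TCF7L2 have been found in colorectal tumors.

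On hg38, VTI1A (ENSG00000151532.15) lies on the plus strand of chromosome 10 from 112446998 to 112818744, and TCF7L2 (ENSG00000148737.18) lies in the same direction from 112950247 to 113167678. Measured from the VTI1A start, the VTI1A body therefore ends at 371.7 kb, and TCF7L2 spans 503.2 to 720.7 kb. Upstream lie ACSL5, which encodes an enzyme that activates long-chain fatty acids, with its start at -72.9 kb, TECTB, which encodes a protein of the tectorial membrane of the inner ear, at -163.6 kb, and GPAM, which encodes a mitochondrial enzyme that starts glycerolipid synthesis, at -231.6 kb. ZDHHC6, which encodes a palmitoyltransferase of the endoplasmic reticulum, runs the other way from a start only 0.6 kb inside VTI1A. The viewpoint was taken to lie in the 813 bases from 112447016 to 112447828, which have no values of their own. This viewpoint stretch holds 4 GATC sites, and so several DpnII fragments, and which of them was captured is not known. The start of ZDHHC6, at 112447572, lies in the stretch as well. Interactions of the 2 promoters could therefore not be told apart with certainty.

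The promoter sequences of the 2 ends of the contact are shown because DpnII, which cuts at GATC, sets what can be captured and counted. Both are RefSeq sequences of GRCh38.p14, 250 bases before to 50 bases after the RefSeq start, with GATC in capitals.
VTI1A promoter, chr10:112446965-112447264, plus strand: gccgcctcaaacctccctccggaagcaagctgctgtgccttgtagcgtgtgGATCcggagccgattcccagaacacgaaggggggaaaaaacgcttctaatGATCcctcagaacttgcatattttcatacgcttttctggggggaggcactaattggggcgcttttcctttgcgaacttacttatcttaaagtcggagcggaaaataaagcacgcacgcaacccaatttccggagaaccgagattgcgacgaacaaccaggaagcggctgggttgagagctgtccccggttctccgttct
TCF7L2 promoter, chr10:112949997-112950296, plus strand: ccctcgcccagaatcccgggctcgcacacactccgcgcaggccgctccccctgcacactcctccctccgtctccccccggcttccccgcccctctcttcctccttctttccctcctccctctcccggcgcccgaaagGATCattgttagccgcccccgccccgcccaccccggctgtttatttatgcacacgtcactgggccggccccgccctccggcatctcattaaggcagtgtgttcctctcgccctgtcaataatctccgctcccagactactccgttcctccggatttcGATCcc
Each of these promoters holds 2 GATC sites, whereas 41.7% of the 35116 promoters of the same length hold at least 1. The first GATC of the VTI1A sequence, at 112447016, is the first base of the viewpoint stretch, and the second lies inside it at 112447066.

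The values are the deposited signal, which is the number of interactions of each DpnII fragment with the viewpoint after the authors scaled each library to about the same total, given here per kb. Between 34777 and 60241 interactions on chromosome 10 lay behind each VTI1A library. The libraries were not alike within groups. The window held 44.9% to 46.3% of the chromosome 10 signal in the dTAG+I-BET libraries, 46.2%, 48.2% and 32.7% in dTAG replicates 1 to 3, and 47.1%, 46.6% and 39.2% in DMSO replicates 1 to 3. More of the signal of dTAG replicate 3, and less markedly of DMSO replicate 3, therefore lay outside the window, so results are also given without these 2 libraries, an alternative chosen after the data had been seen.

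In DMSO-treated cells the VTI1A promoter interacted most with its own surroundings and with ACSL5. Of the signal in the window beyond 10 kb, 58.2%, 57.5% and 53.5% lay upstream in the DMSO libraries, 29.9%, 29.9% and 30.7% lay in the VTI1A body, 4.01%, 4.26% and 4.96% lay between VTI1A and TCF7L2, and 6.45%, 6.58% and 8.84% lay in TCF7L2. The profile was asymmetric around the promoter. From 100 to 200 kb, DMSO signal upstream was 3.22, 2.99 and 2.48 times the signal downstream, and from 10 to 50 kb the same ratio was 1.11, 1.13 and 1.12.

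**Figure D1:**
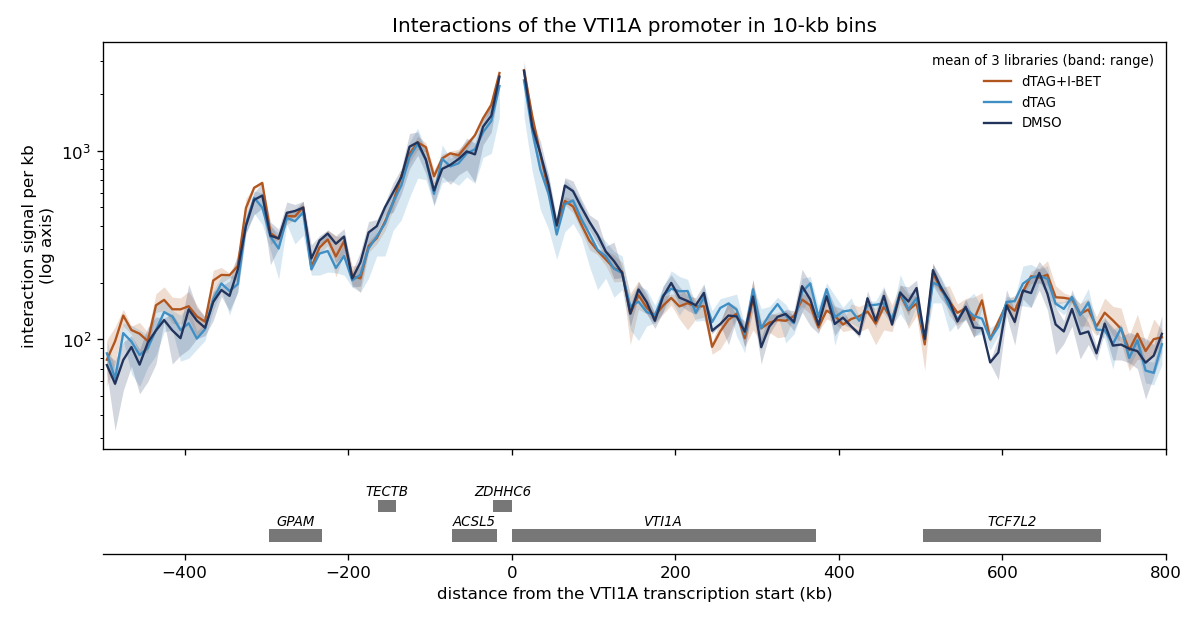
Signal per kb of VTI1A promoter interactions in 10-kb bins (vertical log axis) against distance from the VTI1A start in kb, as the mean of 3 libraries for dTAG+I-BET, dTAG and DMSO, with a band for the lowest to highest library and gene bodies drawn to scale underneath. The profile decays steeply into VTI1A, rises again at about -120 and -310 kb upstream, and runs low through the rest of VTI1A before 2 rises within TCF7L2.

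Signal fell off quickly inside VTI1A. The first 3 bins of the gene body, from 10 to 40 kb, were its 3 highest, with DMSO means of 2643 ± 394, 1347 ± 183 and 969 ± 190.5 per kb (SD, n = 3). By the bin from 140 to 150 kb the DMSO mean was 137 ± 17.6 per kb, and the remaining bins of the body stayed between 90.9 and 199 per kb in DMSO. The bins of this distal body thus had levels like those between VTI1A and TCF7L2, which lay between 106 and 187 per kb in DMSO.

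Upstream, the 3 highest bins were those nearest the promoter, from -20 to -10 kb (2467 ± 229 per kb in DMSO), -30 to -20 kb (1532 ± 247) and -40 to -30 kb (1340 ± 233), which hold ZDHHC6 and the end of ACSL5. Beyond them signal did not decay evenly. A first rise, singled out after its values were seen, lay between TECTB and ACSL5: the bin from -120 to -110 kb averaged 1108 ± 157 per kb in DMSO and ranked 6 of the 128 bins. A second rise, also singled out after seeing the values, lay just beyond GPAM, where the bin from -310 to -300 kb averaged 578 ± 89.5 per kb in DMSO. Across the 49 upstream bins, with 15 to 32 DpnII fragments each, DMSO signal and fragment number had a Spearman correlation of 0.46. The stretch from -119.5 to -109.1 kb held 32 fragments and the bin from -310 to -300 kb held 20. Both rises are in signal per kb. Per fragment, DMSO signal was 289 in the bin from -310 to -300 kb and 146 in the nearer bin from -220 to -210 kb. The height of the first rise per fragment was not compared.

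CTCF motifs were looked for in the 2560 bins of all viewpoints by the 14 letters of the CTCF core on both strands. Such a match stood in 58 bins (2.27%) and in 2 of the 128 VTI1A bins (1.56%). All 3 matches in the VTI1A bins are printed. Capitals mark the core, with 8 bases on each side, read on the minus strand of hg38, and positions are those of the core.
CTCF core at -309.4 kb, chr10:112137567-112137580: cattttttCCACTAGAGGGCGCcagcaccc
CTCF core at -306.7 kb, chr10:112140340-112140353: aactctgtCCACTAGATGGCGGtcagattt
CTCF core at -132.0 kb, chr10:112315038-112315051: gagagtagCCACTAGATGGCGCcctcgttt
The first 2 lie in the bin from -310 to -300 kb, the highest bin of the distant rise, and the third lies between TECTB and ACSL5 in the bin from -140 to -130 kb, which averaged 723 ± 117 per kb in DMSO. No match stood in the bins of TCF7L2. A match describes these letters and not binding, which was not measured in these libraries. The rises were singled out from the same values, and a link between matches and rises was not tested.

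TCF7L2 was a remote stretch with a signal that had not decayed further. Its body averaged 140.0 ± 10.5 per kb in DMSO (133.3, 134.6 and 152.1 in the 3 libraries), against 141 ± 3.54 per kb in the nearer gap between the genes (137.0, 144.0 and 141.1). Beyond TCF7L2, from 720.7 to 800 kb, DMSO signal was 93.2 ± 6.19 per kb. Behind the TCF7L2 values stood 1080 to 2286 interactions per library.

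At the same distances from their own starts, the other 19 viewpoints had a lower median signal than VTI1A had over TCF7L2. VTI1A was at 140.0 per kb there in DMSO, against a median of 80.5 per kb over the other viewpoints, which ranged from 12.3 to 511 per kb, and it ranked 7 of 20 in the DMSO mean and in each of the 9 libraries. Over the VTI1A body the order was the other way: VTI1A ranked 14 of 20, with 352 per kb against a median of 422 per kb. From 100 to 200 kb downstream VTI1A ranked 16 of 20, with 211 per kb against a median of 362 per kb. These ranks describe single loci and were not tested.

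**Figure D2:**
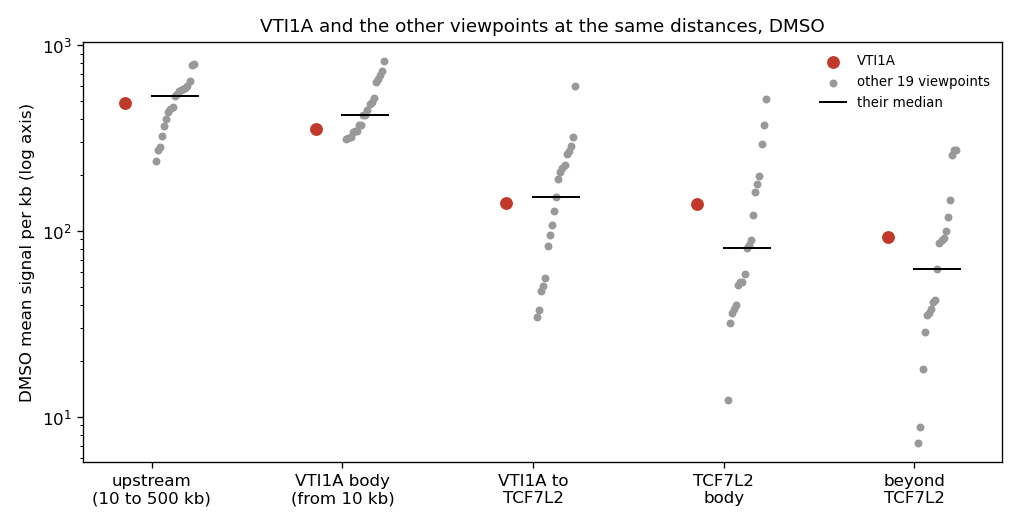
DMSO mean signal per kb (vertical log axis) of VTI1A (large point) and of the other 19 viewpoints (small points, with a line at their median) over the distances of 5 stretches of the VTI1A window. VTI1A lies below the median over its own body and above it over the distances that hold TCF7L2.

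Within TCF7L2 the signal had 2 rises. The 3 highest of its 22 bins in DMSO were the bin from 510 to 520 kb (252.3, 252.8 and 193.5 per kb in the 3 DMSO libraries), the bin from 640 to 650 kb (182.5, 233.5 and 259.4) and the bin from 520 to 530 kb (163.7, 209.3 and 189.4). The TCF7L2 promoter itself was not among them: 5 kb on each side of the TCF7L2 start, DMSO signal was 115.4, 111.1 and 117.4 per kb. The number of DpnII fragments moved with these levels, from 14 in the bins starting at 500, 580 and 590 kb to 35 in the bin starting at 620 kb. Across the 22 bins the DMSO signal per kb and the number of fragments per bin had a Spearman correlation of 0.87, given as a description, since neighboring bins share libraries. Per fragment, the bin from 510 to 520 kb stayed the highest of TCF7L2 in DMSO (86.3), and the bin from 640 to 650 kb (70.4) lay below the bins starting at 600 kb (79.6) and 500 kb (71.8). Per fragment, VTI1A also ranked 7 of 20 over the TCF7L2 distances.

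To ask whether MED14 degradation, with or without I-BET, altered contacts with TCF7L2, each gene body and each gap of the window was compared between groups with limma, with p-values adjusted over the 268 such segments of all viewpoints. The comparisons of dTAG+I-BET and of dTAG with DMSO share the DMSO libraries. None of the 11 VTI1A segments passed an adjusted p of 0.05 in any comparison, beside 4.85% of all segments (dTAG+I-BET over DMSO), 1.87% (dTAG over DMSO) and 0% (dTAG+I-BET over dTAG). At an unadjusted p under 0.05 the 11 segments gave 0, 0 and 1, beside 23.9%, 14.6% and 8.58% of all segments, and edgeR on the recovered interactions called none of them, beside 8.58%, 1.87% and 0% of all segments.

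TCF7L2 signal was 160.3, 155.0 and 163.9 per kb in dTAG+I-BET libraries and 161.7, 166.3 and 142.3 per kb in dTAG libraries, against 133.3, 134.6 and 152.1 per kb in DMSO libraries. All dTAG+I-BET libraries lay above all DMSO libraries, as they did in 22.4% of all segments, whereas dTAG replicate 3 lay below DMSO replicate 3. The log2 ratio was 0.19 for dTAG+I-BET against DMSO (95% interval -0.03 to 0.42, adjusted p = 0.285), 0.16 for dTAG against DMSO (-0.06 to 0.39, adjusted p = 0.478) and 0.03 for dTAG+I-BET against dTAG (-0.20 to 0.26, adjusted p = 0.880). Without dTAG replicate 3 and DMSO replicate 3, the log2 ratios were 0.25 (adjusted p = 0.017) and 0.29 (adjusted p = 0.025) against DMSO, in a setting in which 25.7% and 11.6% of all segments passed. The call on TCF7L2 thus rested on which libraries were kept. The flatter decay of those libraries moves with it, and its part in the result was not tested. With all libraries kept, the rise in dTAG+I-BET was not particular to TCF7L2. Beyond TCF7L2 the dTAG+I-BET libraries also all lay above the DMSO libraries (log2 ratio 0.20, adjusted p = 0.248). The same held from the window start to GPAM (0.28, adjusted p = 0.282). For dTAG against DMSO both gaps stayed near 0 (-0.03 and 0.00).

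**Figure D3:**
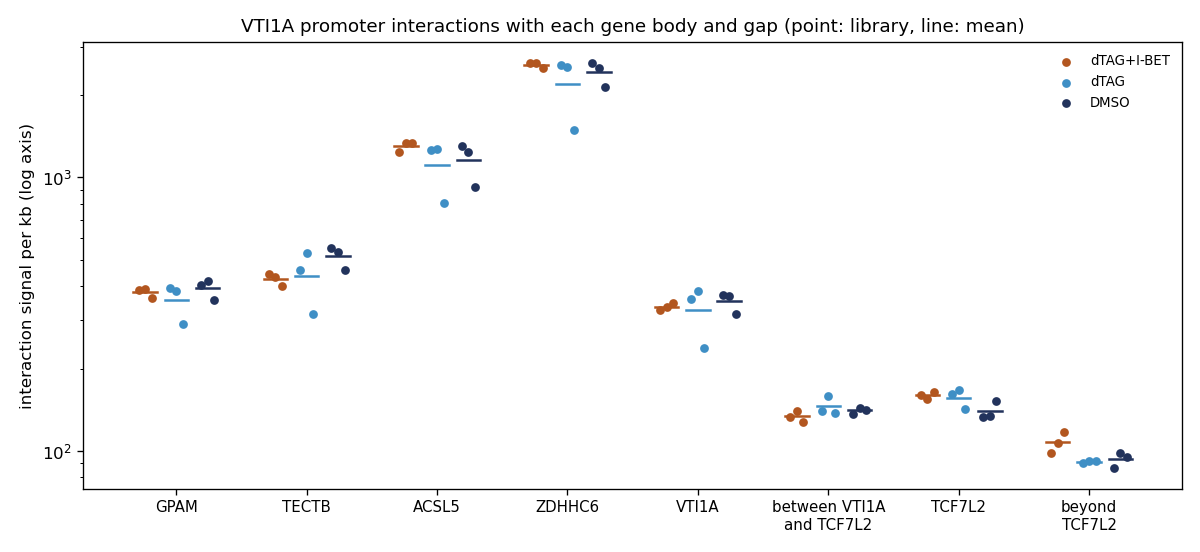
Signal per kb (vertical log axis) of the VTI1A promoter with gene bodies and gaps of the window, for each library (points) and group mean (lines) of dTAG+I-BET, dTAG and DMSO. One dTAG library lies below the others in the nearer segments. In TCF7L2 the dTAG+I-BET libraries (155.0 to 163.9) lie above the DMSO libraries (133.3 to 152.1), as they also do beyond TCF7L2.

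The estimates of the 22 bins of TCF7L2 differed in sign, and whether its bins differed from each other was not tested. In dTAG+I-BET cells 15 bins had a higher and 7 a lower estimate than in DMSO-treated cells, with a median log2 ratio of 0.20, beside 0.02 over all 2560 bins and 0.08 over the bins of the other viewpoints at the same distances. In dTAG cells 17 bins had a higher and 5 a lower estimate, with a median of 0.20, beside -0.04 over all bins and 0.08 at the same distances. In each comparison the libraries of 6 TCF7L2 bins did not overlap with DMSO, all on the higher side, beside 14.1% of all bins for dTAG+I-BET and 7.54% for dTAG. All of these bins started at 570 kb or beyond, that is, downstream of the rise nearest the TCF7L2 start.

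Single bins did not pass. None of the 128 VTI1A bins had an adjusted p under 0.05, beside 3.79% of all 2560 bins (dTAG+I-BET over DMSO), 1.09% (dTAG over DMSO) and 0% (dTAG+I-BET over dTAG). At an unadjusted p under 0.05 there were 7, 2 and 2, beside 15.5%, 12.1% and 6.84% of all bins. edgeR called 1 VTI1A bin, for dTAG+I-BET against DMSO, beside 4.18% of all bins.

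Among the bins with the lowest p, 4 lay in TCF7L2. The bin from 670 to 680 kb had 157.0, 164.9 and 176.5 per kb in dTAG+I-BET and 134.7, 158.2 and 142.5 in dTAG libraries, against 110.1, 95.01 and 125.6 in DMSO libraries, and its log2 ratios against DMSO were 0.60 (adjusted p = 0.132) and 0.40 (adjusted p = 0.449). Without the 2 libraries numbered 3 the first of these was 0.69 (adjusted p = 0.042), where 10.6% of all bins passed. The bin from 590 to 600 kb had 131.7, 123.0 and 117.7 per kb in dTAG+I-BET and 105.3, 121.8 and 123.3 in dTAG libraries, against 102.0, 61.2 and 92.6 in DMSO libraries, with log2 ratios of 0.57 (adjusted p = 0.237) and 0.48 (adjusted p = 0.435). In both bins each treated library lay above each DMSO library. The bin from 570 to 580 kb had a log2 ratio of 0.48 for dTAG+I-BET against DMSO (adjusted p = 0.249), and the bin from 700 to 710 kb one of 0.50 for dTAG against DMSO (adjusted p = 0.340). Only 38 to 100 interactions per library lay behind each value of the 2 bins given by library, so that counting error alone is wide here.

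**Figure D4:**
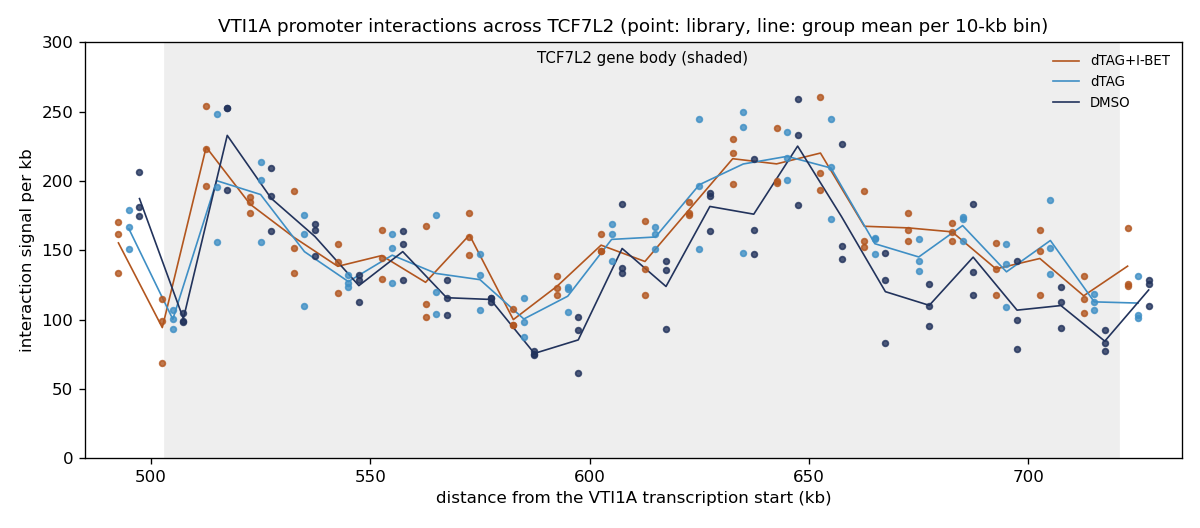
Signal per kb (vertical axis) of VTI1A promoter interactions in the 10-kb bins across TCF7L2, with a point per library and a line through the group means of dTAG+I-BET, dTAG and DMSO; the horizontal axis is distance from the VTI1A start in kb. The 3 groups overlap near the start of TCF7L2, and the DMSO line lies lowest over most bins from 570 kb on.

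At the edge of the window, the bin from -480 to -470 kb had the largest estimate of the named bins. It had 139.3, 117.8 and 144.4 per kb in dTAG+I-BET and 122.5, 102.8 and 98.6 in dTAG libraries, against 83.2, 96.6 and 53.5 in DMSO libraries. The log2 ratio for dTAG+I-BET against DMSO was 0.81 (adjusted p = 0.088), and this was the bin that edgeR called (log2 0.77, adjusted p = 0.035). The neighboring bin from -490 to -480 kb gave 0.80 (adjusted p = 0.210), and the bin from -220 to -210 kb had the lowest estimate of those named, -0.41 for dTAG against DMSO (adjusted p = 0.411). Between dTAG+I-BET and dTAG the 5 bins with the lowest p, which started at -490, -310, -100, 380 and 780 kb, had log2 ratios of 0.63, 0.45, 0.31, -0.38 and 0.57, each with an adjusted p of 0.712.

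No estimate for the TCF7L2 promoter passed. It had 70.9, 133.5 and 96.3 per kb in dTAG+I-BET and 112.7, 96.5 and 98.6 in dTAG libraries, against 115.4, 111.1 and 117.4 in DMSO libraries. The log2 ratio was -0.24 for dTAG+I-BET against DMSO (95% interval -0.72 to 0.24, adjusted p = 0.677) and -0.16 for dTAG against DMSO (-0.64 to 0.32, adjusted p = 0.817), with 28 to 69 interactions per library behind each value. Single libraries decided the size of the first of these, which was -0.02 without dTAG+I-BET replicate 1 and -0.47 without dTAG+I-BET replicate 2, and the second was 0.02 when 2.5 kb on each side of the start was taken. None of the promoters of TCF7L2, ACSL5, TECTB and GPAM passed, beside 0.461%, 0.922% and 0% of the 217 promoters tested in the 3 comparisons. ACSL5 had the highest promoter signal, with 876.0, 874.0 and 965.6 per kb in dTAG+I-BET and 781.5, 824.3 and 657.6 in dTAG libraries, against 848.3, 903.4 and 642.4 in DMSO libraries.

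No upstream gene body passed in any comparison. ACSL5 body signal was 1235, 1332 and 1335 per kb in dTAG+I-BET and 1255, 1271 and 806.8 in dTAG libraries, against 1302, 1242 and 918.2 in DMSO libraries, with log2 ratios of 0.19 (adjusted p = 0.636) and -0.07 (adjusted p = 0.901) against DMSO. ZDHHC6 beyond 10 kb from the VTI1A start had the highest level, with 2610.4, 2613 and 2500.4 per kb in dTAG+I-BET and 2569, 2522 and 1487 in dTAG libraries, against 2625, 2512 and 2141 in DMSO libraries, and log2 ratios of 0.09 (adjusted p = 0.829) and -0.18 (adjusted p = 0.680). In both genes dTAG replicate 3 was the lowest library. GPAM body signal ran from 290.2 to 418.9 per kb over the 9 libraries, with log2 ratios of -0.05 and -0.15. TECTB had the lowest estimate of the segments for dTAG+I-BET: 442.3, 430.5 and 400.5 per kb in dTAG+I-BET and 459.7, 527.9 and 316.5 in dTAG libraries, against 552.0, 531.4 and 459.6 in DMSO libraries. All dTAG+I-BET libraries lay below all DMSO libraries there, as they did in 16.4% of all segments (log2 ratio -0.27, 95% interval -0.66 to 0.12, adjusted p = 0.386). Without the 2 libraries numbered 3 the TECTB ratio was -0.35 (adjusted p = 0.026), where 25.7% of all segments passed.

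VTI1A body signal was 328.5, 337.1 and 345.9 per kb in dTAG+I-BET and 359.4, 383.4 and 237.4 in dTAG libraries, against 371.2, 367.5 and 317.9 in DMSO libraries. dTAG replicate 3 stood apart from its group. The log2 ratios were -0.06 for dTAG+I-BET against DMSO (95% interval -0.44 to 0.32) and -0.13 for dTAG against DMSO (-0.51 to 0.24). Without dTAG replicate 3 the second of these turned to 0.08 (adjusted p = 0.677). As a share of the window, the VTI1A body took 27.7%, 27.6% and 28.3% in dTAG+I-BET libraries, below each of the 29.9%, 29.9% and 30.7% in DMSO libraries (difference -2.27 percentage points; p = 0.1 in an exact two-sided permutation test, which cannot go lower with these group sizes, and 0.5 after adjustment over 15 such tests), and 29.5%, 30.2% and 27.6% in dTAG libraries. The share of TCF7L2 was 8.13%, 7.63% and 8.06% in dTAG+I-BET and 7.98%, 7.87% and 9.93% in dTAG libraries, against 6.45%, 6.58% and 8.84% in DMSO libraries, so that DMSO replicate 3 overlapped with both (exact permutation p = 0.4 and 0.3).

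Cohesin, which extrudes chromatin loops, was listed by the study as reduced after dTAG treatment at 881 sites, judged from the CUT&Tag signal of its subunit SMC1A. Of these sites 13 lay in the VTI1A window, all beyond 10 kb, and with 5 kb on each side they merged into 9 windows. They stood between TECTB and ACSL5 (-114 kb), in ACSL5 (-65 kb, with 4 sites, and -42 kb), in introns of VTI1A (44 and 71 kb), over exons of VTI1A (286 and 369 kb) and between VTI1A and TCF7L2 (429 and 457 kb). None stood in TCF7L2. None of the 9 windows passed in any comparison, beside 14.2%, 8.33% and 0% of the 120 windows of all viewpoints. Across the 9, the median log2 ratio was -0.00 for dTAG+I-BET and 0.03 for dTAG against DMSO, beside -0.14 and -0.18 over all windows.

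Among these windows the one at 71 kb, which joins 2 sites in a VTI1A intron, had the lowest estimates. It had 477.4, 476.1 and 508.7 per kb in dTAG+I-BET and 577.4, 609.6 and 364.8 in dTAG libraries, against 654.8, 645.8 and 475.0 in DMSO libraries. The log2 ratio for dTAG+I-BET was -0.27 (adjusted p = 0.368). It was -0.42 (adjusted p = 0.0044) without the 2 libraries numbered 3, where 37.5% of all windows passed, and -0.32 (adjusted p = 0.043) once the signal between 10 kb and 1 Mb was set to one total in all libraries, where 32.5% passed. The window at -42 kb in ACSL5 had the highest estimate: 1290, 1376 and 1296 per kb in dTAG+I-BET and 1314, 1278 and 719 in dTAG libraries, against 1179, 1206 and 780 in DMSO libraries. All dTAG+I-BET libraries lay above all DMSO libraries there (log2 ratio 0.35, adjusted p = 0.291), beside 9.17% of all windows.

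**Figure D5:**
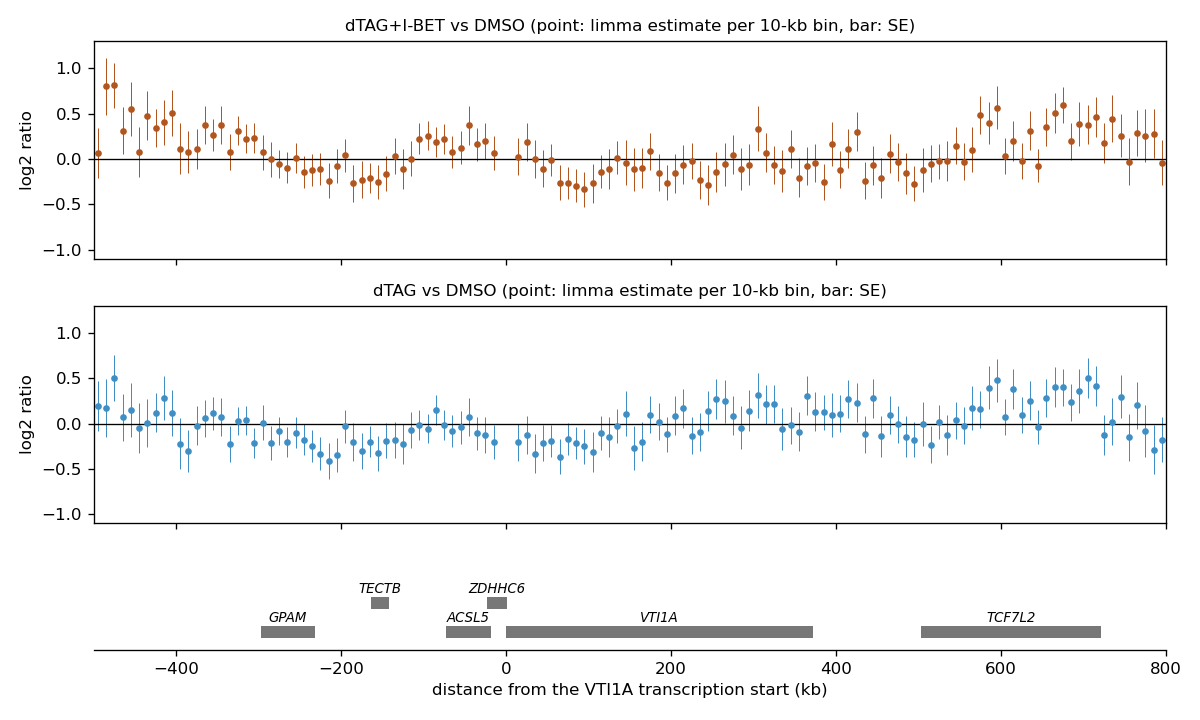
log2 ratio of VTI1A promoter signal per 10-kb bin, dTAG+I-BET against DMSO (top) and dTAG against DMSO (middle), as limma estimates with their standard errors, against distance from the VTI1A start in kb, with gene bodies underneath. The estimates dip below 0 in the proximal VTI1A body (for dTAG+I-BET down to -0.33 at 90 to 100 kb) and lie mostly above 0 over the downstream part of TCF7L2, and no bin passed an adjusted p of 0.05.

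The 2 sides of the promoter were then set against each other within each library, which takes out the total signal of the library. This measure was added after the values had been seen. From 50 to 100 kb, upstream signal, which includes the start of ACSL5, was 2.03, 2.19 and 2.13 times the downstream signal, within VTI1A, in dTAG+I-BET libraries and 1.99, 1.69 and 1.99 times in dTAG libraries, against 1.63, 1.61 and 1.56 times in DMSO libraries. In both treated groups all libraries lay above all DMSO libraries, as they did in 8.75% and 5% of the 80 such ratios of all viewpoints. Fitted with limma over these 80 ratios, the log2 ratio was 0.40 for dTAG+I-BET against DMSO (SE 0.08, adjusted p = 0.0034), 0.23 for dTAG against DMSO (SE 0.08, adjusted p = 0.054) and 0.17 for dTAG+I-BET against dTAG (adjusted p = 0.593). Of the 80 ratios, 48.8% passed for dTAG+I-BET against DMSO, 5% on the higher and 43.8% on the lower side, 32.5% passed for dTAG against DMSO, 1.25% on the higher and 31.2% on the lower side, and 0% passed between the treated groups. Leaving out any 1 library, or the 2 numbered 3, gave 0.38 to 0.43 for dTAG+I-BET and 0.18 to 0.31 for dTAG against DMSO, and the dTAG estimate passed only without dTAG replicate 2 (0.31, adjusted p = 0.018). No other of the 4 distance bands passed for VTI1A with all libraries. For dTAG against DMSO the ratio from 200 to 500 kb passed without DMSO replicate 3 (-0.31) and without the 2 libraries numbered 3 (-0.26, adjusted p = 0.0057). In the second setting 48.8% of the 80 ratios passed, 47.5% on the lower side. In the same settings it passed for dTAG+I-BET against dTAG (0.36, and 0.30 with an adjusted p of 0.023), where 6.25% passed in the second. DMSO replicate 3 is in neither of these 2 groups, and 0.36 was also the value with all libraries.

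In the other loci the balance moved more often to the downstream side, so the difference between VTI1A and the mean of the other 19 viewpoints was tested directly. From 50 to 100 kb this difference was 0.73 on the log2 scale for dTAG+I-BET against DMSO (95% interval 0.53 to 0.92, adjusted p = 0.00013) and 0.58 for dTAG against DMSO (0.39 to 0.77, adjusted p = 0.0011). It was also above 0 from 10 to 50 kb (0.38 and 0.32, adjusted p = 0.0065 and 0.021) and from 100 to 200 kb (0.36 and 0.28, adjusted p = 0.0064 and 0.025), and from 200 to 500 kb for dTAG+I-BET (0.34, adjusted p = 0.021). From 200 to 500 kb it was 0.01 for dTAG (adjusted p = 0.980). Such differences passed in 30% of the 80 tests for dTAG+I-BET and 27.5% for dTAG, in 16.2% and 13.8% on the higher side, so a locus apart from the mean of the others was common. Both comparisons use the same DMSO libraries. The values from 50 to 100 kb passed in each alternative tried, whereas those from 10 to 50 kb and 100 to 200 kb for dTAG, and from 200 to 500 kb for dTAG+I-BET, lost their call without single libraries. Outside 50 to 100 kb the ratio of VTI1A itself did not pass. For dTAG+I-BET and dTAG it changed by 0.12 and 0.09 from 10 to 50 kb, and by 0.08 and -0.04 from 100 to 200 kb. From 200 to 500 kb it changed by 0.18 and -0.18. The differences there thus include shifts of the other viewpoints.

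With all libraries the 2 sides behind the ratio from 50 to 100 kb did not pass by themselves. From 50 to 100 kb downstream, VTI1A signal was 430.9, 426.6 and 454.2 per kb in dTAG+I-BET and 454.7, 551.2 and 327.7 in dTAG libraries, against 554.0, 558.5 and 440.2 in DMSO libraries, with log2 ratios of -0.23 (adjusted p = 0.467) and -0.24 (adjusted p = 0.493). The first was -0.35 (adjusted p = 1.8e-05) without the 2 libraries numbered 3, where 50.6% of all bands passed, and the second ran from -0.41 without dTAG replicate 2 to -0.04 without dTAG replicate 3. Over the same distances the mean of the other viewpoints was 0.32 higher in dTAG+I-BET and 0.15 higher in dTAG than in DMSO. VTI1A minus the other viewpoints was therefore -0.56 (adjusted p = 0.0027) and -0.39 (adjusted p = 0.024), beside 25.6% and 8.33% of 180 such differences that passed. The dTAG difference lost its call without DMSO replicate 1 or 2, without dTAG replicate 1 or 3 and with only the 2 groups compared (adjusted p up to 0.114), whereas that for dTAG+I-BET passed in each alternative tried. From 50 to 100 kb upstream, VTI1A log2 ratios were 0.17 and -0.01. None of the 9 distance bands of VTI1A passed by itself, beside 6.67%, 2.78% and 0% of the 180 bands of all viewpoints. Without the 2 libraries numbered 3, 4, 2 and 3 of the 9 bands passed in the 3 comparisons, beside 50.6%, 42.2% and 12.2% of all bands, and 5, 2 and 1 of the bands relative to other viewpoints passed, beside 51.1%, 37.2% and 5.56%. With the signal set to one total between 10 kb and 1 Mb, 1 band passed for dTAG+I-BET against DMSO, beside 21.7% of all bands.

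Over the distances of TCF7L2, VTI1A minus the other viewpoints was 0.88, 0.82 and 0.92 on the log2 scale in dTAG+I-BET and 0.87, 0.88 and 0.58 in dTAG libraries, against 0.69, 0.72 and 0.75 in DMSO libraries. The change of this difference was 0.16 for dTAG+I-BET (95% interval -0.03 to 0.34, adjusted p = 0.223) and 0.06 for dTAG (-0.13 to 0.25, adjusted p = 0.686) against DMSO, beside 12% and 5% of 100 such differences that passed. dTAG+I-BET libraries all lay above DMSO libraries, as they did in 22% of the 100 differences, and dTAG replicate 3 lay below them. Without dTAG replicate 3 alone the dTAG+I-BET value stayed at 0.16 (adjusted p = 0.037). That library is in neither group of this comparison, so only the spread estimated over all libraries and the adjustment changed. Without the 2 libraries numbered 3, the values were 0.17 (adjusted p = 0.019) and 0.17 (adjusted p = 0.031), where 36% and 25% passed. With all libraries, other stretches changed by more than TCF7L2 for dTAG+I-BET against DMSO. The change was -0.28 over the VTI1A body (adjusted p = 0.058) and 0.21 beyond TCF7L2 (adjusted p = 0.223). It was -0.17 between VTI1A and TCF7L2 (adjusted p = 0.095) and 0.14 upstream (adjusted p = 0.272).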

How the data were processed

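Capture-C interactions of 20 promoters were measured in 9 libraries of MED14-dTAG HCT-116 cells. The authors cut chromatin with DpnII, captured viewpoint fragments with biotinylated oligonucleotides, processed the reads with CapCruncher against hg38 and deposited a signal per fragment and library, scaled to about the same total in cis for each viewpoint; the submitters' processing notes name bcl2fastq 2.17. Every deposited signal was a whole multiple, within 0.01, of that of 1 interaction (100% of values), so interactions could be recovered. No value column was left unmapped (0). Signal was summed, beyond 10 kb from the start, over 10-kb bins, gene bodies and gaps, promoters and cohesin site windows (5 kb on each side) and distance bands, and divided by length. The list of 881 sites with less SMC1A is from the supplement of the study, and only its positions were used.

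log2(signal per kb + 1) was compared over all 9 libraries with limma 3.58.1 in R 4.3.3, with Benjamini-Hochberg adjustment over all regions of a kind across the 20 viewpoints; fold changes are on that scale and are two-sided in their tests. Shares were compared with exact permutation tests (scipy 1.17.1), and edgeR 4.0.16 was used on the recovered interactions as an alternative. The limma test of 10-kb bins for dTAG against DMSO was tried on simulated interactions with known changes. The simulation had no library set apart like dTAG replicate 3, and the other fits were not simulated. Named were all protein-coding genes and site windows of the VTI1A window, any called bin, up to 5 bins with the lowest p per comparison, and the 3 bins with the highest DMSO mean upstream, in VTI1A and in TCF7L2. The window, lists and tests were chosen with earlier results of these data known. Ratios of upstream to downstream signal, stretches set against the other viewpoints and the omission of 2 libraries were added after the data had been seen. Alternatives were another scaling, each library left out, only the groups compared, a replicate block, pseudocounts of 0.5 and 5, edgeR, other bin and window sizes and a filter on low bins. Intervals and counts cover these libraries only, and PCR copies could not be told apart in the deposited values.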

Additional observations from a re-analysis of the deposited data

Results flagged for a closer look

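The change between treated and DMSO-treated cells differed between VTI1A and the mean of the other 19 viewpoints in 10 results, by limma on the difference itself. Over all viewpoints such differences passed in 25.6% (dTAG+I-BET) and 8.33% (dTAG) of 180 bands, and in 30% and 27.5% of 80 ratios. The 2 of 9 and 1 of 9 VTI1A bands that passed were near the general share. Downstream of the promoter, VTI1A minus the others was -0.56 for dTAG+I-BET and -0.39 for dTAG from 50 to 100 kb, and -0.30 for dTAG+I-BET from 100 to 200 kb (log2, against DMSO). The second of these lost its call without DMSO replicate 1 or 2, without dTAG replicate 1 or 3 and with only the 2 groups compared (adjusted p up to 0.114), and the third without dTAG+I-BET replicate 1 or 2 (adjusted p up to 0.0654).

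For the ratio of upstream to downstream signal, VTI1A minus the others was 0.38 from 10 to 50 kb, 0.73 from 50 to 100 kb, 0.36 from 100 to 200 kb and 0.34 from 200 to 500 kb for dTAG+I-BET, and 0.32, 0.58 and 0.28 over the first 3 of these bands for dTAG. Of these, 0.32 and 0.28 for dTAG and 0.34 for dTAG+I-BET lost their call without single libraries. With all libraries the ratio of VTI1A itself passed against DMSO only from 50 to 100 kb for dTAG+I-BET (0.40). Both sets share the DMSO libraries and much of their signal, so these 10 results are not independent of each other. The flatter decay of dTAG replicate 3 and DMSO replicate 3 moves with the levels, and its part in the result was not tested, whereas the values from 50 to 100 kb were 0.75 and 0.56 without these 2 libraries.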

How the results depend on the processing

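Leaving out dTAG replicate 3 and DMSO replicate 3, chosen after seeing the data, changed most. For dTAG+I-BET against DMSO, it gave 3 called VTI1A bins, 3 segments, 1 site window, 4 bands and 5 bands relative to other viewpoints, against 0, 0, 0, 0 and 2 with all libraries. Over all viewpoints 10.6% of bins, 25.7% of segments, 37.5% of site windows, 50.6% of bands and 51.1% of relative bands then passed. The 3 of 128 bins and 1 of 9 site windows were below the general share, and 3 of 11 segments, 4 of 9 bands and 5 of 9 relative bands were near it. For dTAG against DMSO it gave 1 segment, 2 bands and 2 relative bands, against 0, 0 and 1 (11.6% of all segments, 42.2% of all bands and 37.2% of all relative bands). For dTAG+I-BET against dTAG it gave 3 bands and 1 relative band, against 0 and 0 (12.2% and 5.56%).

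Other settings moved fewer counts. For dTAG+I-BET against DMSO, edgeR called 1 bin (4.18% of all bins), and rescaling called 1 site window (32.5% of all site windows) and 1 band (21.7% of all bands). With only the 2 groups compared, 0 relative bands passed for dTAG against DMSO. Leaving out 1 library in turn gave 0 to 1 bands and 1 to 4 relative bands for dTAG+I-BET against DMSO, and 0 to 2 relative bands for dTAG against DMSO. Same-numbered libraries correlated between -0.12 and 0.24 in their deviations from group means. For DMSO with dTAG these values were 0.03, 0.11 and 0.24 in replicates 1 to 3, against -0.19 to 0.10 between unlike numbers. Same-numbered pairs with dTAG+I-BET ran from -0.12 to 0.01. Whether the numbers pair DMSO with dTAG samples was therefore left undecided. With a replicate block, 4 relative bands passed for dTAG+I-BET against DMSO (30% of all relative bands), and no other count moved by over 1.5 times.

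Of the single log2 ratios computed under alternatives, 16 changed sign beyond their standard error, and 191 further ones changed sign within it. Most of the 16 came without dTAG replicate 3. For dTAG against DMSO, leaving out 1 library gave -0.40 to 0.070 at the 44 kb site window, -0.37 to 0.019 at the 71 kb site window, -0.42 to 0.038 at the GPAM promoter (0.0038 without both libraries), -0.34 to 0.050 for the bin at -20 kb, -0.37 to 0.082 for the bin at 10 kb and -0.0040 to 0.12 for the relative band 10 to 50 kb upstream. For dTAG+I-BET against dTAG it gave -0.045 to 0.41 for the band 10 to 50 kb downstream, -0.057 to 0.39 for the bin at 10 kb, -0.0029 to 0.50 for the bin at 20 kb and -0.0011 to 0.15 for TCF7L2 relative to other viewpoints; without both libraries these were -0.045, -0.057, -0.0029 and -0.0011, and the band 50 to 100 kb downstream was -0.20. The cause was not tested. Depth limits single bins, with 16 interactions behind the lowest value of an upstream bin, 18 beyond TCF7L2 and 27 in TCF7L2.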
